A study of Mus musculus with 4 samples.

Results

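Translation initiation factors (eIFs) are the proteins that bring the initiator tRNA, the small ribosomal subunit and an mRNA together and start protein synthesis at the right codon. Their RNA was followed in mouse Treg, the regulatory T cells that express Foxp3, after treatment with an agonist antibody to DR3 (death receptor 3). The set held every gene whose symbol starts with Eif and a digit and that had a probe set annotated to that symbol alone, except Eif2ak2, which the choice left out. That gave 50 genes of 22180 with such a probe set. Of these, 47 were bright enough to be tested and 3 were not. Eif1, Eif2s1, Eif3g and Eif4g1 had no probe set of their own, and Eif2s3x, Eif3j2 and Eif4ebp3 were found only at probe sets annotated to several genes, so these 7 were not analysed here.

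The samples were 4 arrays of CD4+Foxp3+GFP+ Treg, sorted 4 days after an intraperitoneal injection of anti-DR3 (2 arrays) or of an isotype control antibody (2 arrays). DR3 is a costimulatory receptor of the tumour necrosis factor receptor family. All mice, controls included, were of the strain spelled Foxp3Luci-DTR-4(B6 Albino) in the labels and so carried the alleles of that strain. The labels do not state age, sex or any pooling of mice. The comparison asked how the RNA of each initiation complex differed once DR3 had been stimulated in the animal.

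Initiation begins when eIF2, loaded with GTP and the initiator tRNA, joins a small subunit held ready by eIF1, eIF1A, eIF5 and the large scaffold eIF3. The mRNA arrives through eIF4F, in which eIF4E binds the cap, eIF4G bridges to eIF3 and the helicase eIF4A unwinds structure ahead of the scanning ribosome. In T cells this machinery is a known point of control: kinases that phosphorylate eIF2 reduce initiation under stress, and 4E-BP proteins hold eIF4E back until the kinase complex mTORC1 releases it.

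Over the 12114 genes tested, r was 0.992 between the anti-DR3 arrays, 0.989 between the control arrays and 0.975 to 0.980 across groups. All 8 Treg markers were above the filter on dim genes, and their intensities summed to 21377 and 21420 on the anti-DR3 arrays against 19885 and 19342 on the controls. They did not move one way: Ikzf2 (Helios) rose (log2 difference 0.58 ± 0.077) and Il2ra (CD25) fell (-0.49 ± 0.095; adjusted p = 0.0193 and 0.0441, limma), and 0 of the other 6 were called. Summed over 9 proliferation genes the intensity was 1834 and 1808 after anti-DR3 against 615 and 683, with Bub1 too dim to be tested. Ccna2 passed the filter only through the anti-DR3 arrays, and 6 of the other 7 were called higher. The 7 B cell markers summed to 4303 and 4513 against 2809 and 3029. Most of each sum was Ighm, at 11.96 and 12.04 against 11.31 and 11.44 (log2 intensity). Ighm and H2-Aa were called higher. Cd79b (0.18 ± 0.11) and Cd22 (-0.04 ± 0.11) had overlapping groups and were not called, and Ms4a1, Cd79a and Pax5 were dim on these arrays. The CD8 T cell list summed to 223.5 and 239.6 against 172.6 and 168.3, with Cd8b1 called and Cd8a dim. The monocyte list summed to 328.3 and 371.1 against 277.9 and 311.1, with Csf1r called. Lyz2 (0.43 ± 0.23) and Cd68 (0.11 ± 0.091) had overlapping groups and were not called. Itgam passed the filter only through the anti-DR3 arrays. Cd14 and Adgre1 were dim, and Adgre1 was lower without overlap, at 4.68 and 4.72 against 5.06 and 5.01. The plasma cell, dendritic cell and natural killer cell lists had 0 calls, each with only 1 marker bright enough to be tested. All 4 neutrophil markers were dim, so that list could have no call. The part of these genes' cells, or of cell division, in the differences below was not tested. Since RNA was measured in bulk, a change in the mix of cells and a change in RNA per cell cannot be told apart.

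Initiation factor genes differed little in size between the groups. The largest difference among the 47 was 1.33-fold, and 1 gene, Eif3h, passed an adjusted p of 0.05 in limma, in the direction of higher expression after anti-DR3. Over all genes tested 4.49% were called higher and 1.47% lower, or 5.96% in either direction, so a single call among 47 genes is no more than the background. No gene was called lower (0, with 5 below zero at an unadjusted p under 0.05). At an unadjusted p under 0.05, 13 were higher and 5 lower, together 38.3% of the 47, against 16.6% higher, 9.57% lower and 26.1% in either direction over all genes. The groups did not overlap in 29 of the 47 genes, 19 higher and 10 lower, which is 40.4% and 21.3%, against 31.6% and 24.6% of all genes (56.1% in either direction). One of the genes counted as lower, the copy Eif4a3l1, passed the filter on dim genes only through the control arrays and so had to be lower; without it 13 were higher and 4 lower at an unadjusted p under 0.05, and 19 and 9 were without overlap. The difference lay above 0 in 33 of the 47 (70.2%), against 52.4% of all genes. The median difference (anti-DR3 minus control antibody, log2 scale) was 0.07 for these genes and 0.01 for all genes tested.

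The split depended on the scaling of the arrays. With the arrays shifted to one common median (centring), 5 initiation factor genes were higher and 8 lower at an unadjusted p under 0.05, against 11.5% and 15.6% of all genes, and 0 were called. These counts were taken over all 47 genes, including Eif4a3l1, which had to be lower. The medians became 0.01 for the initiation factors and -0.05 for all genes. For the 46 genes that did not pass, adjusted p ran from 0.0635 to 0.925 in limma, and the 95% interval of the difference reached between 0.19 and 0.36 on either side of its estimate. Differences smaller than that reach were not detectable with 2 arrays per group. Larger ones could also miss the threshold, since the intervals are not adjusted for the number of genes. Eif4a2, with an interval from -0.55 to -0.14, did not pass.

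**Figure D1:**
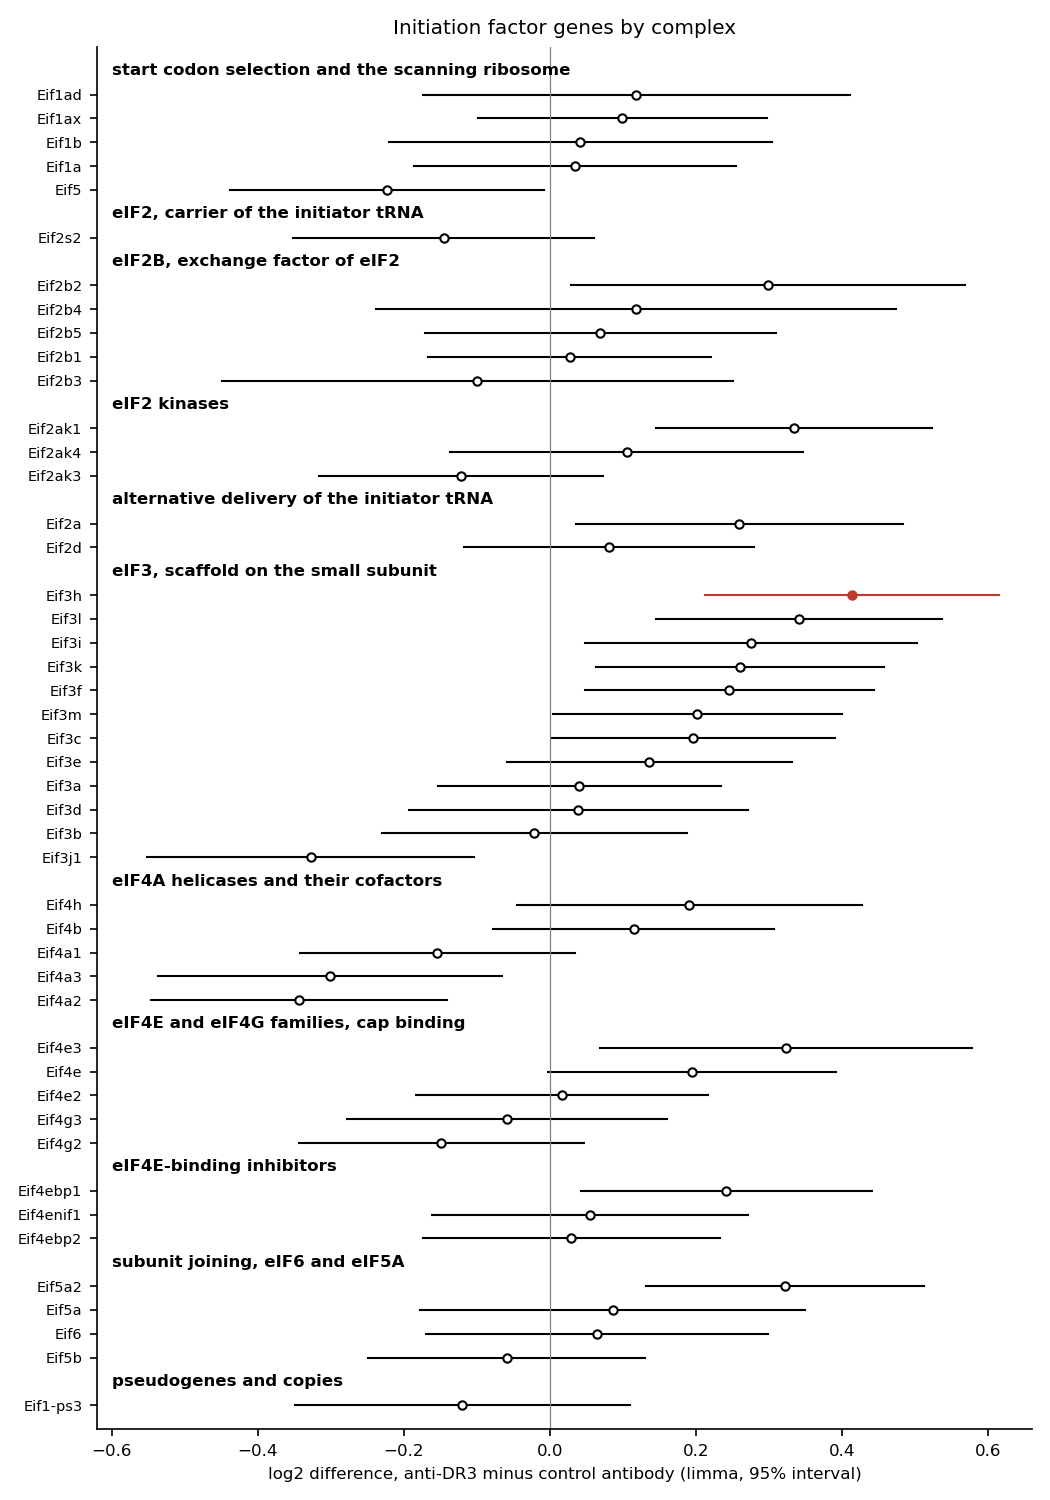
Log2 difference (anti-DR3 minus control antibody) of 46 tested initiation factor genes (all but Eif4a3l1), grouped by complex, with the 95% interval from limma on 2 arrays per group. The filled red point is Eif3h (0.41), the gene that passed an adjusted p of 0.05; open points did not pass.

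Most subunits of eIF3 lay above 0. eIF3 is the largest initiation factor, binds the small subunit and keeps the large subunit away until the start codon is found. Of its 12 measured subunits 10 lay above 0 and 2 below, with a median of 0.20 on the log2 scale against 0.01 for all genes. The groups did not overlap in 8 subunits in the higher direction (66.7%, against 31.6% of all genes) and in 1 in the lower. Limma called 1 higher and 0 lower, against 4.49% and 1.47% of all genes. At an unadjusted p under 0.05 the counts were 7 and 1, against 16.6% and 9.57% of all genes.

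Eif3h, whose product carries an MPN domain of the eIF3 core, stood at 10.06 and 10.01 (log2 intensity) on the anti-DR3 arrays and at 9.67 and 9.58 on the control arrays. It rose by 0.41 ± 0.082 (SE, n = 2 arrays per group), or 1.33-fold (adjusted p = 0.0455, limma). Both anti-DR3 arrays were above both control arrays. The call was close to the threshold: it was lost without each of the 4 arrays in turn (adjusted p between 0.103 and 0.203) and after centring the arrays (0.0641). The difference itself lay between 0.35 and 0.46 over 13 other settings, though several of these, such as the filter and the threshold, cannot change a difference. Of the 13, 5 kept the call, among them the looser threshold of 0.10, where it could not be lost.

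Eif3l, a PCI domain subunit that sits beside eIF3k, had values of 8.28 and 8.29 against 7.99 and 7.91. Its difference was 0.34 ± 0.080 (adjusted p = 0.0652, limma), short of the threshold. Eif3k, its partner subunit, had 9.33 and 9.40 against 9.08 and 9.13, a difference of 0.26 ± 0.080 (adjusted p = 0.113, limma). In both genes the arrays of each group lay close together and apart from the other group.

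Eif3f, the other MPN domain subunit, had 10.03 and 10.07 against 9.76 and 9.84, a difference of 0.25 ± 0.080 (adjusted p = 0.127, limma). Eif3i, a WD40 repeat subunit of the module that reaches to the entry side of the mRNA channel, had 8.79 and 8.63 against 8.39 and 8.48, a difference of 0.28 ± 0.093 (adjusted p = 0.134, limma). Neither passed, and neither overlapped. Eif3m had 8.70 and 8.77 against 8.50 and 8.56, and Eif3c, one of the main scaffold subunits, 9.60 and 9.66 against 9.42 and 9.45. These gave 0.20 ± 0.081 and 0.20 ± 0.079 (adjusted p = 0.185 and 0.187, limma), again without overlap.

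The remaining core subunits differed less. Eif3e had a difference of 0.14 ± 0.080 (adjusted p = 0.340, limma), with groups just apart. Eif3a, the backbone of the complex, differed by 0.04 ± 0.079, Eif3d, a cap-binding subunit, by 0.04 ± 0.094, and Eif3b, the hub of the WD40 module, by -0.02 ± 0.085, all with overlapping groups. A dim second probe set of Eif3d gave -0.19. Centring the arrays turned Eif3a and Eif3d to -0.02 each.

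Eif3j1 went the other way. The j subunit is the loosely bound one, which sits in the decoding centre and is not part of the stable core. It stood at 7.19 and 7.32 on the anti-DR3 arrays against 7.52 and 7.64 on the controls, a difference of -0.33 ± 0.091 (adjusted p = 0.0916, limma), short of the threshold. The mouse genome has a near-identical copy, Eif3j2, so the probe set cannot be taken as specific to either. A probe set annotated to both copies gave 7.24 and 7.52 against 7.79 and 7.97, a difference of -0.50 ± 0.14 (adjusted p = 0.184, limma fitted over 21289 probe sets).

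When the subunits were divided by architecture, a grouping made after the values were seen, the 8 PCI and MPN subunits (Eif3a, c, e, f, h, k, l and m) all lay above 0, with a median of 0.22 and 7 of 8 without overlap (31.6% of all genes). Because the grouping followed the values, this is a description only. The 4 others (Eif3b, d, i and j1) had 2 above and 2 below, with a median of 0.01. The median over all 12 ran from 0.14 to 0.22 over the alternatives, and 8 subunits were without overlap in the higher direction also after centring and after a further quantile normalization, when 23.4% and 29.5% of all genes were. After centring, 8 of 12 lay above 0. At an unadjusted p under 0.05 in limma, 7 subunits were higher in the reported fit. That count was 2 after centring and 5 after quantile normalization, against 11.5% and 14.7% of all genes. It was also 5 with the replicate number added to the fit, against 16.7% of all genes, so it did not depend on scaling alone. With an array left out in turn, the median over the 12 ran from 0.17 to 0.22.

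**Figure D2:**
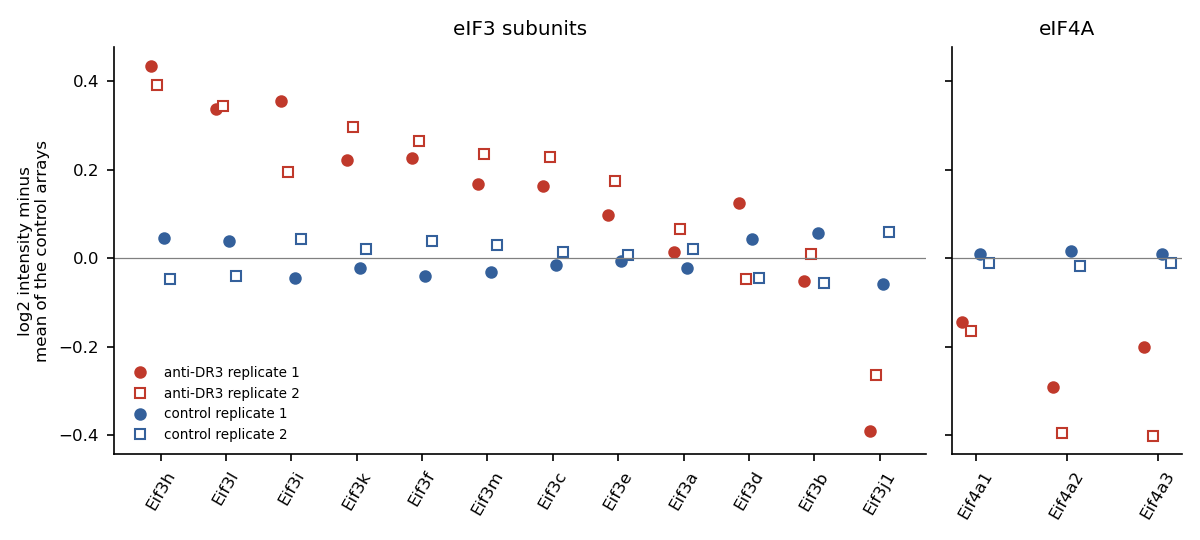
Log2 intensity of each array minus the mean of the 2 control arrays of the same gene, for the 12 eIF3 subunits (left) and the 3 eIF4A helicases (right); red marks are anti-DR3 arrays, blue marks control arrays, and filled and open symbols are replicates 1 and 2. For Eif3h to Eif3e both red marks lie above both blue marks, while for Eif3j1 and the eIF4A genes both lie below.

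Start-site sequences are shown for 6 eIF3 subunits, those in the promoter table with an unadjusted p under 0.05, and for the 3 eIF4A helicases. None of these genes was called. Eif3h, the gene that passed the threshold, was not in the promoter table, and neither were Eif3e and Eif3i. Eif3a, Eif3b and Eif3d were also in the table and are not printed. The table held 9 of the 12 eIF3 subunits and 39 of the 50 initiation factor genes. Many mRNAs of the translation machinery begin with a C followed by a run of pyrimidines, the 5′ terminal oligopyrimidine (TOP) motif through which mTORC1 controls their translation. Each window below runs from 10 bases before to 20 bases after the RefSeq start (GRCm38.p6), 5′ to 3′, and capitals mark every unbroken run of at least 7 bases that are C or T.

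Eif3l, chr15:79075213-79075242, plus strand:
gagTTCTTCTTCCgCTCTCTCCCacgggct
Eif3k, chr7:28981869-28981898, minus strand:
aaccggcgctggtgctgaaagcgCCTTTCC
Eif3f, chr7:108934405-108934434, plus strand:
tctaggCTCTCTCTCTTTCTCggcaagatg
Eif3c, chr7:126566347-126566376, minus strand:
ctgctcagagggactcggcagcttagctgg
Eif3m, chr2:105017008-105017037, minus strand:
cggtcggcgtgtttctggatcggagcgtct
Eif3j1, chr2:122028570-122028599, plus strand:
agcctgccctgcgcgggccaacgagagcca
Eif4a1, chr11:69672404-69672433, minus strand:
gtaacgtcacgtcgagttgcagagcgccgg
Eif4a2, chr16:23107458-23107487, plus strand:
gaaaccccgtaggagcagggcggccgagga
Eif4a3, chr11:119300024-119300053, minus strand:
cgccttacatccggttcccgccgcggcttg

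Eif3f held a run of 15 pyrimidines across its start and Eif3l one of 10, while the run of Eif3k lay downstream of its start. The windows of Eif3c, Eif3m, Eif3j1 and the eIF4A helicases held none. A run of that length was present in 3 of the 9 eIF3 windows (33.3%) and in 12 of 39 over all initiation factors (30.8%), against 20.8% of the 9479 genes tested that had a promoter in the table. The 39 include Eif2s3y and Eif2c5, which were too dim to be tested and both held such a run. The 9479 hold tested genes only, so the sets are not fully alike, here and for the motif shares below. A RefSeq start can lie some bases from the start used in Treg.

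The 250 bases upstream of the start are given for Eif3l and Eif4a2, the subunit with the largest difference among eIF3 genes in the table and the helicase with the largest. They were searched on both strands for the E-box CACGTG, the ETS-type site CCGGAAG, the GC box GGGCGG and CCAAT, all in capitals below, and no matches overlapped.

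Eif3l, chr15:79074973-79075222, plus strand:
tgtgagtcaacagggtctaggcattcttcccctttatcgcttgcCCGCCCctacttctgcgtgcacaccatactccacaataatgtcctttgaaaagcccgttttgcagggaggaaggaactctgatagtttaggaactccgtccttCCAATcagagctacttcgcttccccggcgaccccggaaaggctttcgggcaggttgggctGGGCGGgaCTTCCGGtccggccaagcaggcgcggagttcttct
Eif4a2, chr16:23107218-23107467, plus strand:
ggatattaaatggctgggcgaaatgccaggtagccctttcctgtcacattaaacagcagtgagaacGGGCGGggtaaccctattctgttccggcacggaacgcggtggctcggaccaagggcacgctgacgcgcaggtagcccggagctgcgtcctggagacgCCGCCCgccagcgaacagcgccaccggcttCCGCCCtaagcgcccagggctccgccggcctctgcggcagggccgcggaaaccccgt

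Eif3l held 1 CCGGAAG, 2 GGGCGG and 1 CCAAT match, and Eif4a2 held 3 GGGCGG matches. Over the 39 initiation factor genes CACGTG was present in 8 (20.5%, against 9.82% of genes tested), among them Eif3f, Eif3k and Eif4a1. CCGGAAG was present in 11 (28.2%, against 15.1%), GGGCGG in 28 (71.8%, against 61.7%) and CCAAT in 14 (35.9%, against 39.4%). A gene with several starts was counted once. These are letter matches and describe the windows only.

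The eIF4A helicases lay below 0 together. eIF4A1 is the main RNA helicase of initiation, eIF4A2 its close relative, and eIF4A3 the homologue that belongs to the exon junction complex on spliced mRNA. The groups did not overlap in any of the 3 and all were lower after anti-DR3 (24.6% of all genes were lower without overlap), but 0 passed the threshold in limma, with 2 of them under an unadjusted p of 0.05. After centring the differences of Eif4a1, Eif4a2 and Eif4a3 were -0.21, -0.40 and -0.36, and after a further quantile normalization -0.11, -0.35 and -0.29. With the mean of all probe sets they were -0.12, -0.32 and -0.30. The other settings tried could not turn the sign of genes whose groups do not overlap.

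Eif4a2 stood at 10.16 and 10.06 on the anti-DR3 arrays against 10.47 and 10.44 on the controls, a difference of -0.34 ± 0.083 (adjusted p = 0.0690, limma). Eif4a3 had 6.09 and 5.89 against 6.30 and 6.28, a difference of -0.30 ± 0.096 (adjusted p = 0.122, limma). Eif4a1 had 13.48 and 13.46 against 13.64 and 13.62, a difference of -0.15 ± 0.077 (adjusted p = 0.268, limma). The Eif4a1 probe set was the brightest of all 41345 on both control arrays and ranked 3 on both anti-DR3 arrays, and summarised values do not show whether it was near saturation.

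More than 1 probe set bore on these genes. The other Eif4a1 set gave -0.10 and the other 2 Eif4a2 sets -0.21 and -0.41, in each case with both anti-DR3 arrays below both control arrays. Sets annotated to Eif4a2 together with Snord2 or Snora81, small nucleolar RNAs of its introns, gave -0.31 and -0.24. A set annotated to Rfc4 and Eif4a2 gave -0.03, with overlapping groups. RefSeq places 3 small nucleolar RNA genes within Eif4a1 and 5 within Eif4a2, and no source used here gives which RNA each set reads.

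**Figure D3:**
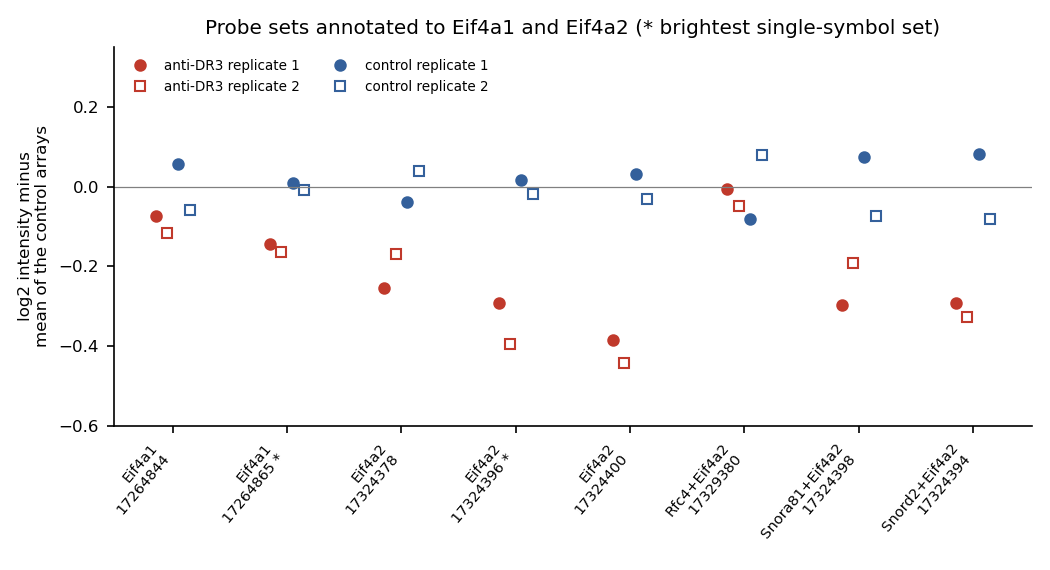
Log2 intensity minus the mean of the 2 control arrays for the 8 probe sets annotated to Eif4a1 or Eif4a2, alone or with another gene; probe set numbers are under each name and an asterisk marks the brightest set with a single symbol. In 7 of the 8 sets both anti-DR3 arrays (red) lie below both control arrays (blue).

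Eif4a3l1, a gene copy named for its likeness to Eif4a3, had 5.33 and 5.28 against 5.54 and 5.63. Both anti-DR3 values lay below the median of all probe sets and both control values above it, so no test is given for it. Copies of this kind can share signal with Eif4a3. Another probe set annotated to Eif4a3, Eif4a3l1 and Gm5576 together went the other way, at 8.38 and 8.15 against 8.26 and 8.05, or 0.11 ± 0.13, with overlapping groups. The direction for Eif4a3 was therefore not shared by every probe set that names it.

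The cofactors of eIF4A lay above 0. Eif4b, which stimulates the helicase, differed by 0.12 ± 0.078 (adjusted p = 0.408, limma) and Eif4h, its smaller relative, by 0.19 ± 0.096 (adjusted p = 0.273, limma). Both were without overlap in the higher direction, and neither passed.

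Of the 5 tested genes of the eIF4E and eIF4G families 0 were called, 3 lay above 0 and 2 below, with a median of 0.02. Eif4e3, a cap-binding relative of eIF4E, had 7.61 and 7.60 against 7.40 and 7.16, a difference of 0.32 ± 0.10 (adjusted p = 0.123, limma). Eif4e, the cap-binding protein itself, had 8.43 and 8.52 against 8.28 and 8.28, a difference of 0.19 ± 0.080 (adjusted p = 0.196, limma). Both genes were higher on both anti-DR3 arrays. Eif4e2, the homologue linked to translational repression, differed by 0.02 ± 0.082.

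Eif4g2, which lacks the eIF4E-binding region and supports cap-independent initiation, differed by -0.15 ± 0.080 (adjusted p = 0.300, limma), without overlap. Eif4g3, a scaffold of eIF4F, differed by -0.06 ± 0.089, with overlap. Eif4e1b, a germline relative of eIF4E, was too dim to be tested at 4.11 and 4.39 against 4.12 and 4.14.

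The inhibitors of eIF4E had 3 tested genes, all above 0 and 0 called. Eif4ebp1, the 4E-BP that mTORC1 phosphorylates to free eIF4E, had 7.184 and 7.274 against 7.002 and 6.973, a difference of 0.24 ± 0.081 (adjusted p = 0.133, limma), without overlap. Eif4enif1, which carries eIF4E into the nucleus, had 7.89 and 7.76 against 7.82 and 7.72, and the groups overlapped. Eif4ebp2, the second 4E-BP, differed by 0.03 ± 0.083 and overlapped too.

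The eIF2 side of the pathway was represented thinly. Eif2s2, the beta subunit of eIF2, had 6.86 and 6.89 against 7.08 and 6.96, a difference of -0.15 ± 0.084 (adjusted p = 0.336, limma). Eif2s3y, the gamma subunit gene of the Y chromosome, was dim at 2.28 and 2.65 against 2.23 and 2.34, between percentiles 4.53 and 7.38 of all probe sets of an array.

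eIF2B recharges eIF2 with GTP and is the target through which phosphorylated eIF2 slows initiation. Of its 5 subunit genes 4 lay above 0 and 0 were called, with a median of 0.07. Eif2b2, another subunit of the regulatory core, had 7.57 and 7.50 against 7.37 and 7.11, a difference of 0.30 ± 0.11 (adjusted p = 0.161, limma), without overlap. Eif2b4, a regulatory subunit, had 6.05 and 5.63 against 5.70 and 5.75, so a single anti-DR3 array carried its difference of 0.12 ± 0.15. Eif2b5, the catalytic subunit, differed by 0.07 ± 0.098, Eif2b1 by 0.03 ± 0.079 and Eif2b3 by -0.10 ± 0.14, all with overlap.

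Among the kinases of eIF2, Eif2ak1, the haem-regulated kinase that also relays mitochondrial stress, had the largest difference. It stood at 8.56 and 8.58 against 8.25 and 8.22, a difference of 0.33 ± 0.077 (adjusted p = 0.0635, limma). That was the smallest adjusted p among the genes that did not pass. A probe set annotated to Aimp2 and Eif2ak1 together gave 0.0068 ± 0.084 (limma fitted over 21289 probe sets), with overlapping groups. The difference was therefore not shared by every probe set that names Eif2ak1. Eif2ak3, the kinase of endoplasmic reticulum stress (PERK), had 7.08 and 7.11 against 7.18 and 7.25, a difference of -0.12 ± 0.079 (adjusted p = 0.389, limma). Eif2ak4, the amino acid sensor GCN2, differed by 0.11 ± 0.098 with overlap, the difference resting on anti-DR3 replicate 1 (-0.0020 without it). The 3 kinases thus had values on both sides of 0.

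Factors that can deliver the initiator tRNA without eIF2 both lay above 0. Eif2a, a single protein distinct from eIF2, had 8.28 and 8.35 against 8.13 and 7.98, a difference of 0.26 ± 0.091 (adjusted p = 0.147, limma). Eif2d, which also recycles small subunits, had 7.05 and 6.99 against 6.98 and 6.90, a difference of 0.08 ± 0.081 (adjusted p = 0.580, limma). Neither passed, and the groups did not overlap in either.

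Factors of start codon selection showed small differences apart from Eif5. Eif5, which makes eIF2 hydrolyse its GTP at the start codon, had 9.65 and 9.62 against 9.78 and 9.93, a difference of -0.22 ± 0.088 (adjusted p = 0.180, limma), without overlap. RefSeq places 1 small nucleolar RNA gene, Snora28, within Eif5, and 1 such gene within each of Eif2ak3, Eif3a and Eif4g2. For these genes too, no source used here gives which RNA the probe set reads. Eif1ax, an eIF1A gene of the X chromosome, had 7.93 and 7.84 against 7.79 and 7.78, a difference of 0.10 ± 0.081 (adjusted p = 0.489, limma). Its autosomal partner Eif1a differed by 0.03 ± 0.090, Eif1b, a relative of Eif1, by 0.04 ± 0.11 and Eif1ad, an eIF1A-like factor, by 0.12 ± 0.12, all with overlap. Eif1-ps3, a pseudogene in the RefSeq table, had 8.90 and 8.72 against 8.96 and 8.90, and Eif2c5, listed there as a long non-coding RNA, was dim at 3.99 to 4.22.

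At the last steps, Eif5a2 stood apart from Eif5a. eIF5A carries the modified amino acid hypusine and helps ribosomes through difficult peptide bonds, and Eif5a2 is its second gene. Eif5a2 had 6.78 and 6.75 against 6.43 and 6.46, a difference of 0.32 ± 0.078 (adjusted p = 0.0687, limma), short of the threshold. Eif5a had 8.21 and 8.15 against 8.22 and 7.97, a difference of 0.09 ± 0.11 with overlap. Eif5b, the GTPase that joins the subunits, differed by -0.06 ± 0.077, and Eif6, which keeps free large subunits apart from small ones, by 0.06 ± 0.096.

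Unequal movement of related genes was measured within arrays for 6 pairs; the pairs of Eif2s3x with Eif2s3y and of Eif4g1 with Eif4g3 could not be formed. The difference of Eif5a minus that of Eif5a2 was -0.24 (pooled SD between arrays of one group 0.14), of Eif4ebp1 minus Eif4ebp2 0.21 (0.10), of Eif4a1 minus Eif4a2 0.19 (0.043) and of Eif4a1 minus Eif4a3 0.15 (0.091). In these 4 pairs the groups did not overlap, and the two-sided exact permutation p was 0.333, the smallest that 2 arrays against 2 can give. For Eif4e minus Eif4e3 (-0.13, SD 0.13) and Eif1a minus Eif1ax (-0.06, SD 0.093) the groups overlapped (exact permutation p = 0.667). With an array left out, Eif5a minus Eif5a2 ran from -0.38 to -0.092, Eif4ebp1 minus Eif4ebp2 from 0.11 to 0.31, Eif4a1 minus Eif4a3 from 0.056 to 0.24 and Eif4a1 minus Eif4a2 from 0.15 to 0.23. Eif4e minus Eif4e3 ran from -0.25 to -0.0060, and Eif1a minus Eif1ax from -0.15 to 0.018, turning sign without control replicate 2. The exact test cannot pass 0.05 with 4 arrays, and no other test was run on the 6 pairs.

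The rest of the translation machinery was counted in the same fit. Among 23 regulators of initiation not named Eif 0 were called, with a median of -0.04. At an unadjusted p under 0.05, 2 were higher and 4 lower, together 26.1%, against 26.1% of all genes in either direction. Ppp1r15a, the stress-induced subunit of the phosphatase that reactivates eIF2, had 9.44 and 9.44 against 9.75 and 9.74, a difference of -0.31 ± 0.076 (adjusted p = 0.0739, limma). Ddx3x, a helicase that helps ribosomes scan structured leaders, had 9.12 and 9.02 against 9.38 and 9.40, a difference of -0.32 ± 0.083 (adjusted p = 0.0794, limma). Both were lower without overlap and did not pass.

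The mTORC1 list had 1 call among 16 genes, lower, and 0 higher, with a median of 0.07, where 1.47% of all genes were called lower. Rptor, the raptor subunit that presents 4E-BPs to the kinase, had 7.70 and 7.55 against 8.08 and 8.03 and fell by 0.43 ± 0.089 (adjusted p = 0.0493, limma). That call was lost without each array in turn (adjusted p between 0.109 and 0.251). Rragc, a Rag GTPase that recruits mTORC1 to lysosomes, had 7.96 and 7.96 against 7.60 and 7.65, a difference of 0.34 ± 0.077 (adjusted p = 0.0629, limma).

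Cytosolic aminoacyl-tRNA synthetases, which charge tRNAs with amino acids, had 1 call among 19, higher, and 0 lower, with a median of 0.10, where 4.49% of all genes were called higher. Wars, the tryptophanyl enzyme that is also induced by interferon, had 8.06 and 8.32 against 7.54 and 7.45 and rose by 0.70 ± 0.11, or 1.62-fold (adjusted p = 0.0282, limma). The call was lost without each array in turn (adjusted p between 0.0644 and 0.151). Vars, the valyl enzyme, had 7.71 and 7.53 against 7.12 and 7.22, a difference of 0.45 ± 0.096 (adjusted p = 0.0534, limma).

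Of 10 tested targets of the integrated stress response, the programme set off by eIF2 phosphorylation, 0 were called, with a median of 0.22. At an unadjusted p under 0.05, 3 were higher and 0 lower (30%). Over all genes the shares were 16.6% higher and 26.1% in either direction. Trib3 passed the filter only through the control arrays, and the median of the other 9 was also 0.22. Asns, the asparagine synthetase, differed by 0.32 ± 0.077 and Psat1, of serine synthesis, by 0.37 ± 0.11 (adjusted p = 0.0683 and 0.0990, limma). Of 13 elongation and termination factors 0 were called and 0 lay under an unadjusted p of 0.05, with a median of -0.01; the largest were Abce1, which splits ribosomes after termination, at -0.21 ± 0.089 and Eef1a2 at 0.17 ± 0.079. Of 61 tested cytosolic ribosomal protein genes 0 were called, with a median of 0.00. At an unadjusted p under 0.05, 3 were higher and 5 lower, together 13.1%, against 26.1% of all genes. Without Rpl22l1 and Rplp2, which passed the filter through 1 group only, these were 3 and 4 of 59. Rps20 had the largest statistic there, with 6.86 and 6.52 against 7.53 and 7.24, or -0.69 ± 0.15 (adjusted p = 0.0561, limma), followed by Rpl17 at 0.56 ± 0.14 (adjusted p = 0.0749, limma). The mitochondrial initiation factors Mtif2 and Mtif3 differed by 0.11 ± 0.095 and 0.03 ± 0.10, with overlapping groups.

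**Figure D4:**
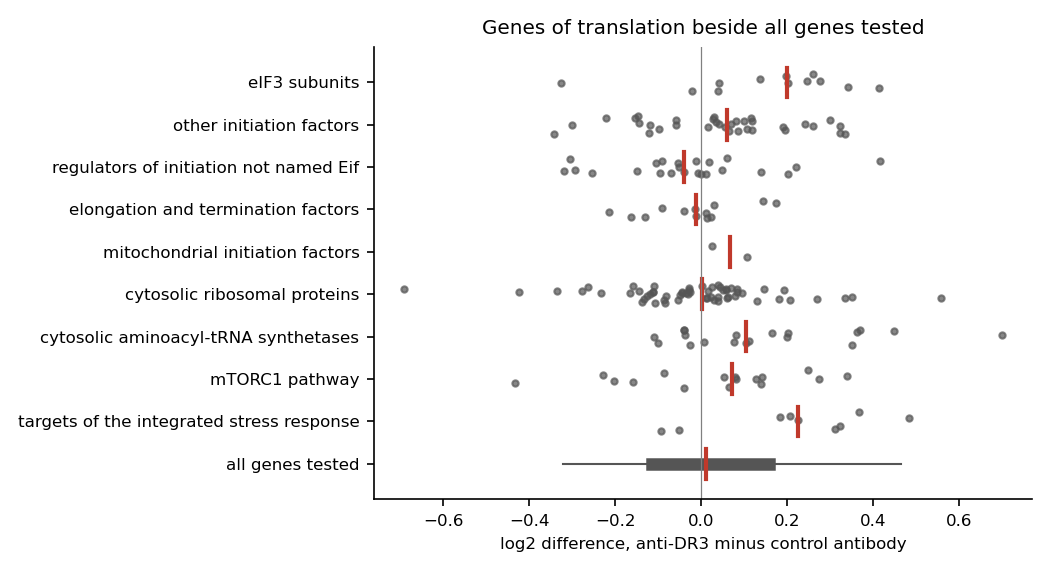
Log2 difference (anti-DR3 minus control antibody) of each tested gene of the translation lists, leaving out the 4 that passed the filter through 1 group only; red bars are medians, and the lowest row gives the 5th to 95th percentile (thin line) and the middle 50% (thick line) of all 12114 genes tested. The eIF3 median lies at 0.20, that of the ribosomal protein genes at 0.00 and that of all genes at 0.01.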

How the data were processed

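RNA of 4 samples of sorted mouse Treg was measured, 1 array each. The deposited values are probe set intensities on a linear scale, for which the submitters' processing notes name RMA (robust multi-array average), a method that subtracts background, equalises the arrays' distributions and combines the probes of each set. Such scaling can hide a change common to most genes. Its software, version and genome build were not given in the sources used here. Here log2 was taken, each gene was represented by its brightest probe set with a single annotated symbol, and a gene entered the test if it exceeded an array's overall probe set median on 2 or more arrays. The test was run with limma 3.58.1 in R 4.3.3 (lmFit, eBayes, two-sided). P-values were adjusted by Benjamini-Hochberg over all 12114 genes tested, with a threshold of 0.05. This set aside 10066 genes as dim, and let 163 genes in through the anti-DR3 arrays alone and 136 through the control arrays alone. Standard errors (SE) and 95% intervals are those of limma. The labels give replicate numbers but no separate mice, so the spread behind each p-value is that between arrays and may be technical. With 2 arrays against 2 an exact permutation test cannot go below p = 0.333. For arrays, their number limits the precision.

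All 50 members matched a RefSeq gene by Entrez identifier, and 0 symbols were updated. Start-site sequences are those of a RefSeq table of GRCm38.p6. The members, the complexes, the other lists and the pairs were chosen with earlier results of these data known. Every member was named; values by array were given for members under an unadjusted p of 0.05 and for the 2 of each complex with the largest moderated statistic, and for up to 2 genes of each other list. The code was tested on simulated data. Alternatives covered the replicate block, each array left out, the filter, normalization, the prior, array weights, the choice of probe set and the threshold. Figures were drawn with matplotlib 3.10.9.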

Additional observations from a re-analysis of the deposited data

How the results depend on the processing

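Each group held 2 arrays, which limits the precision. Over the 13 alternatives, named genes kept their direction and their side of the threshold in 700 instances, passed it in 37, lost it in 20 and changed sign in 34.

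The number of initiation factor genes called higher, 1 in the reported fit, was 0 with the replicate number as a block (563 genes called in all, 497 of them shared with the reported fit; Eif3h adjusted p = 0.0633, limma), 0 without each array in turn, 0 with no filter on dim genes, 0 after centring the arrays and 0 after a further quantile normalization. It was 4 with a stricter filter, 5 with a trended robust prior and 4 at an adjusted p of 0.10. The number called lower was 1, 2 and 2 under these 3, and 0 under the others. With every bright probe set fitted on its own, an alternative chosen after seeing the data, limma called 0 of 21289 probe sets (4121 at an unadjusted p under 0.05) and 0 initiation factor genes, and Eif3h had an adjusted p of 0.144. The genes added by the stricter filter were Eif2ak1, Eif3l and Eif5a2, higher, and Eif4a2, lower.

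Over all genes, 722 were called in the reported fit, 0 to 312 with an array left out (0 without anti-DR3 replicate 2, with 1967 at an unadjusted p under 0.05; 33 without anti-DR3 replicate 1; 96 and 312 without control antibody replicates 1 and 2), 14 with no filter, 1444 with the trended prior and 1689 at 0.10. Centring gave 348 higher and 243 lower against 544 and 178. The median difference of the initiation factors ran from 0.032 to 0.12 with an array left out, was 0.0083 after centring and 0.032 after quantile normalization. The change of Eif4a1 minus that of Eif4a2 was 0.24 after quantile normalization. The cause of these shifts was not tested. Deviations of same-numbered arrays from their group means correlated at r = 0.051 over 2 pairs, so the block rests on a shared number only.

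Signs turned only for genes that were not called. With an array left out in turn, their differences ran from lowest to highest as follows: Eif1b -0.076 to 0.16, Eif2ak4 -0.0020 to 0.21, Eif2b4 -0.094 to 0.33, Eif3b -0.078 to 0.036, Eif3d -0.046 to 0.12, Eif4ebp2 -0.026 to 0.084, Eif4enif1 -0.0066 to 0.12, Mtif3 -0.085 to 0.14, Eif6 -0.025 to 0.15, Eif1a -0.047 to 0.12, Eif2b5 -0.018 to 0.16, Eif4g3 -0.13 to 0.016, Eif1ad -0.029 to 0.27, Eif2b1 -0.0065 to 0.061, Eif2b3 -0.29 to 0.087, Eif4e2 -0.033 to 0.066 and Eif5a -0.041 to 0.21. The sign turned after centring for Eif1a (-0.026), Eif1b (-0.019), Eif2b1 (-0.033), Eif3a (-0.020), Eif3d (-0.021), Eif4e2 (-0.044), Eif4ebp2 (-0.031), Eif4enif1 (-0.0056) and Mtif3 (-0.035). The sign turned after quantile normalization for Eif1a (-0.020), Eif4e2 (-0.020) and Eif4ebp2 (-0.0099). The sign turned with the mean of all probe sets for Eif3d (-0.077).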

Other observations

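The probe sets of Eif4a1 and Eif4a2 differed in their numbering. The brightest set of each was followed by the next probe set number after a step of 2, as were the sets annotated with Snord2 and Snora81, while the other Eif4a1 set was followed after a step of 19 and the dimmer Eif4a2 sets after steps of 16 and 2. No source used here says what the step stands for.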
